A study of Homo sapiens with 9 samples.

Results

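The 10 genes described here encode 7 matrix metalloproteinases (MMP1, MMP7, MMP9, MMP10, MMP13, MMP14 and MMP15) and 3 tissue inhibitors of metalloproteinases (TIMP1, TIMP2 and TIMP3). The list was drawn up by name, as MMP genes of interest in colon cancer with their inhibitors. No expression value enters the rule, although earlier results of these data were known when it was written. Each gene was matched to 1 of the 63677 Ensembl gene identifiers of the count files. Their mRNA was measured by stranded poly(A) RNA sequencing in 3 lines of the human colorectal adenocarcinoma cell line SW480, with 3 libraries of each line (n = 3). SW480 cells were the untransfected parental line. SW480-B cells were 1 single-cell clone selected with geneticin (G418) that expressed the BASP1 coding sequence constitutively from the CMV promoter of pcDNA3. SW480-gRNA-B-all cells had the silenced endogenous BASP1 gene switched on by dCas9-VP64, the MS2-P65-HSF1 activator and pooled sgRNAs to its promoter, all delivered by lentivirus. They were selected with hygromycin B and puromycin, and their parent with dCas9-VP64 had been cloned from single cells. All 9 libraries bear the same batch label. A line transfected with an empty vector was not analysed here, so BASP1, the vector or activator and the cloning cannot be told apart as sources of a difference from SW480. Between the BASP1-expressing lines, the route of BASP1 expression, the vectors, the selection and the clone cannot be told apart either.

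MMPs are zinc-dependent endopeptidases that are made as inactive proenzymes and cleave components of the extracellular matrix, growth factors and cell surface proteins. Most are secreted, whereas the membrane-type enzymes stay anchored at the cell surface, where they can activate other proMMPs. TIMPs bind the active site of MMPs, and TIMP2 has a second role, as a bridge that lets MMP14 activate proMMP2. In intestinal tumours, MMP7 is known as an epithelial product and as a target gene of β-catenin/TCF, while many other MMPs are made mainly by stromal cells. Many promoters of inducible MMP genes carry AP-1 and PEA3-type ETS motifs close to the start of transcription.

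The promoters of the genes that were nearly silent in these cells are shown first. RefSeq promoter sequences (GRCh38.p14) were matched for 6 of the 10 genes (MMP7, MMP10, MMP14, MMP15, TIMP1 and TIMP3). The 250 bases before the start of MMP7 (chr11:102530748-102530997, minus strand) and of MMP10 (chr11:102780629-102780878, minus strand) are printed 5′ to 3′, and capitals mark the motifs found.
MMP7: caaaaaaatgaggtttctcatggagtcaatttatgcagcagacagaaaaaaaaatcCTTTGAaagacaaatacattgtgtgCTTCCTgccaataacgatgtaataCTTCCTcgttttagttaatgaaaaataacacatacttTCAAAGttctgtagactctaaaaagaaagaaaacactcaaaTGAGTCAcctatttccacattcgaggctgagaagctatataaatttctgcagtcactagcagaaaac
MMP10: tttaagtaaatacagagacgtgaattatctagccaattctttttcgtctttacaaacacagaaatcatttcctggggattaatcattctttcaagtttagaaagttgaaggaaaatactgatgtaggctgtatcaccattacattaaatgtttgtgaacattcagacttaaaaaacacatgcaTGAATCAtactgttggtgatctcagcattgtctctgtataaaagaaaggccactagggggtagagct
AP-1 was searched as TGANTCA, TCF as CTTTGA and PEA3 as AGGAAG, on both strands, from 250 bases before to 50 bases after the start. AP-1 was present in 7.71% of the 35116 RefSeq promoters of this length, TCF in 12.9% and PEA3 in 33.6%. In MMP7 an AP-1 motif began at position -67 from the start, TCF motifs at -194 and -108, and PEA3 motifs at -169 and -145. In MMP10 an AP-1 motif also began at -67. TIMP1 had a PEA3 motif at -87, and the windows of MMP14, MMP15 and TIMP3 held none of these letters. None of these 3 motifs overlapped another in a window. A match describes the letters only and is not evidence of binding.

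The promoters of MMP15 and TIMP3 are shown because these were the members that differed between the BASP1-expressing lines. The 250 bases before the start lie at chr16:58025504-58025753 for MMP15 and at chr22:32801455-32801704 for TIMP3, both on the plus strand of GRCh38.p14, and here capitals mark CpG pairs.
MMP15: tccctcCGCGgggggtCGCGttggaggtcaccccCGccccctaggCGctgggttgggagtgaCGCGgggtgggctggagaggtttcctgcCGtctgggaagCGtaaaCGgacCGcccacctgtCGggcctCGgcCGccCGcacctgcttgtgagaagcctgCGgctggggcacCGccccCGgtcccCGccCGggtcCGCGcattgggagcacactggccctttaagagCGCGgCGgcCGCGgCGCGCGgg
TIMP3: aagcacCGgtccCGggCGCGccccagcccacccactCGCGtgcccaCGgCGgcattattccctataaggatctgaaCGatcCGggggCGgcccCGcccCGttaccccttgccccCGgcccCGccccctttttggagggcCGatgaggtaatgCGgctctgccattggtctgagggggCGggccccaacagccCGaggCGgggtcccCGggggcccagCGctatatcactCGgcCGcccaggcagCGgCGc
MMP15 had 31 CpG pairs and 74.8% G or C, and TIMP3 had 26 CpG pairs and 72.4% G or C. The medians over the 35116 promoters were 11 CpG pairs and 58.0% G or C. The windows of MMP7 and MMP10 held 3 and 2 CpG pairs at 33.6% and 34.4% G or C, and those of MMP14 and TIMP1 held 7 and 12 at 56.8% and 64.8%. DNA methylation was not measured in these libraries.

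The libraries held 25238831 to 29355669 counts on genes, and levels are given as CPM, counts scaled to library size with TMM factors. Absence of counts in a library allows up to 3 counts, which is at most 0.116 CPM and covers counting error only. BASP1, which checks the labels, was at 0.691 to 11.9 CPM in SW480, 250.3 to 268 CPM in SW480-B and 167 to 303.4 CPM in SW480-gRNA-B-all. The summed level of 9 colon epithelial markers was 8309 to 10970 CPM in SW480 and 6991 to 11360 CPM in SW480-B. In SW480-gRNA-B-all this sum was 6331 to 7805 CPM, below that of all SW480 libraries. Over the 9 libraries, the sum of 8 fibroblast markers was 2.90 to 10.9 CPM. That of 6 leukocyte markers was at most 3.24 CPM and that of the 4 matched of 5 endothelial markers at most 4.40 CPM. Of the fibroblast markers, COL3A1 was at 0 counts throughout, LUM was at 0.982 to 6.47 CPM in SW480, at most 0.0356 CPM in SW480-B and 0 in SW480-gRNA-B-all (called lower in both lines), and COL1A1 was at 3.51 to 4.37, 2.26 to 8.39 and 7.89 to 10.7 CPM (called higher in SW480-gRNA-B-all against SW480). CEACAM5 was at 0 counts in SW480 and the intestinal markers VIL1 and CDX2 moved with the lines: VIL1 was at 98.8 to 343.5 CPM in SW480, 29.6 to 35.9 CPM in SW480-B and 6.34 to 21.5 CPM in SW480-gRNA-B-all, and CDX2 at 30.4 to 41.9, 58.2 to 67.4 and 2.37 to 5.52 CPM. The part of these markers in the results was not tested. Within lines, 8.38% to 27.7% of 14023 genes differed more than 2-fold between libraries, whereas for the pair of SW480-gRNA-B-all replicates 2 and 3 this share was 0.421%. This pair still differed by more than sampling noise (chi-square of 3.31 per gene, against 91.0 to 343.2 for the other pairs), and the calls in SW480-gRNA-B-all are also given with the pair summed. The labels do not say that replicates came from separate cultures, so the p-values measure the spread between these libraries, which may be technical. In bulk RNA, fewer cells expressing a gene and less RNA per cell cannot be told apart.

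Most of the secreted MMPs were close to the detection limit in all lines. MMP1 (ENSG00000196611; GRCh37 chromosome 11, 102660132 to 102668891, minus strand), the interstitial collagenase, had 0, 3 and 2 counts in SW480, 1, 4 and 7 in SW480-B and 2, 0 and 1 in SW480-gRNA-B-all. MMP13 (ENSG00000137745; chromosome 11, 102813724 to 102826461, minus strand), another collagenase, had 1, 1 and 0 counts, then 0, 2 and 0, then 1, 0 and 0 in the same order of lines. MMP10 (ENSG00000166670; chromosome 11, 102641233 to 102651359, minus strand), stromelysin-2, had 0 counts in every SW480 library, 0, 1 and 1 in SW480-B and 1, 0 and 0 in SW480-gRNA-B-all. None of these 3 genes had more than 7 counts in a library, and no difference was detectable at this depth. MMP1 and MMP10 lie inside WTAPP1, a pseudogene on the opposite strand with 0 to 14 counts, and since the strand setting of the counting was not stated, reads of the overlapping genes could not be told apart.

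MMP7 (ENSG00000137673; chromosome 11, 102391239 to 102401481, minus strand), matrilysin, had 0, 18 and 14 counts in SW480, 1, 1 and 5 in SW480-B and 2, 3 and 6 in SW480-gRNA-B-all. In CPM these were 0, 0.620 and 0.509 in SW480, 0.0387, 0.0356 and 0.177 in SW480-B and 0.0677, 0.1002 and 0.2004 in SW480-gRNA-B-all. The 2 highest libraries were both SW480, but SW480 replicate 1 was at 0 and below every other library, so the lines overlapped. The exact permutation test over libraries (two-sided) gave p = 0.4 for SW480-B against SW480 and p = 0.4 for SW480-gRNA-B-all against SW480, where 3 against 3 libraries cannot go below 0.1. MMP1, MMP7, MMP10 and MMP13 did not pass the filter on low counts, so 6 of the 10 genes entered the tests across genes. In a fit with no filter, edgeR gave these 4 genes adjusted p-values of 0.431 to 0.992 over the 3 comparisons.

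MMP9 (ENSG00000100985; chromosome 20, 44637547 to 44645200, plus strand), gelatinase B, had the highest mean level per kilobase of the 5 secreted members in every line. It was at 0.207, 0.517 and 2.76 CPM in SW480, 0.464, 0.463 and 6.64 CPM in SW480-B and 1.79, 4.61 and 4.27 CPM in SW480-gRNA-B-all. One library of SW480 and one of SW480-B, replicate 3 in each, lay well above the others of their line, and the 3 lines overlapped. The mean was 1.16 ± 1.40 CPM (SD, n = 3) in SW480, 2.52 ± 3.57 in SW480-B and 3.56 ± 1.54 in SW480-gRNA-B-all. Relative to SW480, the log2 fold change (log2FC) of SW480-gRNA-B-all was 1.61 with a standard error (SE) of 0.90 (adjusted p = 0.277), and that of SW480-B was 1.17 (SE 1.22, adjusted p = 0.680), where p-values come from the quasi-likelihood test of edgeR, adjusted by Benjamini-Hochberg over all tested genes. Without SW480 replicate 3 the former was 3.30 (adjusted p = 0.0261), and without SW480-B replicate 3 the latter turned to -1.30 (adjusted p = 0.589). Between the BASP1-expressing lines it was 0.49 (SE 0.95, adjusted p = 0.789), and without SW480-B replicate 3 it was 2.93 (adjusted p = 0.0206).

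MMP14 and MMP15 encode membrane-type MMPs, and both were expressed in all 9 libraries. MMP14 (ENSG00000157227; chromosome 14, 23305769 to 23318250, plus strand), or MT1-MMP, is an activator of proMMP2 and a pericellular collagenase. It was at 13.1, 52.7 and 92.1 CPM in SW480, 132, 257 and 112 CPM in SW480-B and 116, 82.0 and 87.4 CPM in SW480-gRNA-B-all. All SW480-B libraries were above all SW480 libraries, whereas SW480-gRNA-B-all overlapped both. The mean was 52.6 ± 39.5, 167 ± 78.8 and 95.1 ± 18.1 CPM (SD, n = 3) in this order. Against SW480, SW480-B had a log2FC of 1.69 (SE 0.62, adjusted p = 0.245 by edgeR), and for SW480-gRNA-B-all this was 0.85 (SE 0.60, adjusted p = 0.382).

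MMP15 (ENSG00000102996; chromosome 16, 58059658 to 58080805, plus strand), or MT2-MMP, showed a different order. It was at 12.4, 23.2 and 16 CPM in SW480, 15.2, 11.9 and 12.6 CPM in SW480-B and 25.8, 27.9 and 28.9 CPM in SW480-gRNA-B-all. Every SW480-gRNA-B-all library was above every library of the other lines, and SW480-B and SW480 overlapped. The mean was 17.2 ± 5.48, 13.2 ± 1.69 and 27.5 ± 1.56 CPM (SD, n = 3). MMP15 differed from SW480 by a log2FC of 0.67 (SE 0.25, adjusted p = 0.142 by edgeR) in SW480-gRNA-B-all and -0.34 (SE 0.31, adjusted p = 0.629) in SW480-B.

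TIMP1 (ENSG00000102265; chromosome X, 47441807 to 47446188, plus strand) encodes an inhibitor of most secreted MMPs that acts poorly on several membrane-type MMPs. It was at 34.1, 57.7 and 80.4 CPM in SW480, 39.1, 63.5 and 79.6 CPM in SW480-B and 120, 103.4 and 104.7 CPM in SW480-gRNA-B-all. SW480-B and SW480 covered nearly the same range, and SW480-gRNA-B-all lay above both. For SW480-gRNA-B-all the log2FC was 0.92 against SW480 (SE 0.30, adjusted p = 0.101 by edgeR) and 0.85 against SW480-B (SE 0.25, adjusted p = 0.0732). Without replicate 3 of SW480 the former was 1.26 (adjusted p = 0.0277), and without replicate 3 of SW480-B the latter was 1.09 (adjusted p = 0.0282). DESeq2 gave adjusted p = 0.0327 and 0.0206 for these, at changes below 2-fold. For SW480-B against SW480 it was 0.12 (SE 0.37, adjusted p = 0.907). TIMP1 lies inside SYN1 on the opposite strand, which had 17 to 82 counts per library.

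TIMP2 (ENSG00000035862; chromosome 17, 76849059 to 76921469, minus strand), the inhibitor that also bridges MMP14 and proMMP2, was at 81.4, 339 and 299 CPM in SW480, 406, 552 and 319 CPM in SW480-B and 306, 389 and 398 CPM in SW480-gRNA-B-all. SW480 replicate 1 stood below all other libraries, and the lines overlapped. Its log2FC against SW480 was 0.86 (SE 0.49, adjusted p = 0.436 by edgeR) in SW480-B and 0.60 (SE 0.48, adjusted p = 0.442) in SW480-gRNA-B-all.

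TIMP3 (ENSG00000100234; chromosome 22, 33197691 to 33259028, plus strand) encodes the matrix-bound TIMP, which also inhibits ADAM17 and related sheddases. It was at 8.98, 55.5 and 34.7 CPM in SW480, 91.5, 130.3 and 57.8 CPM in SW480-B and 36.5, 30.6 and 29.9 CPM in SW480-gRNA-B-all. All SW480-B libraries were above all libraries of the other lines, although SW480-B replicate 3 was close to SW480 replicate 2. The mean was 33.1 ± 23.3, 93.2 ± 36.3 and 32.3 ± 3.67 CPM (SD, n = 3). Against SW480 its log2FC was 1.52 (SE 0.58, adjusted p = 0.262 by edgeR) in SW480-B and -0.04 (SE 0.56, adjusted p = 0.970) in SW480-gRNA-B-all. TIMP3 lies inside SYN3 on the opposite strand, which had 0 to 7 counts.

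**Figure D1:**
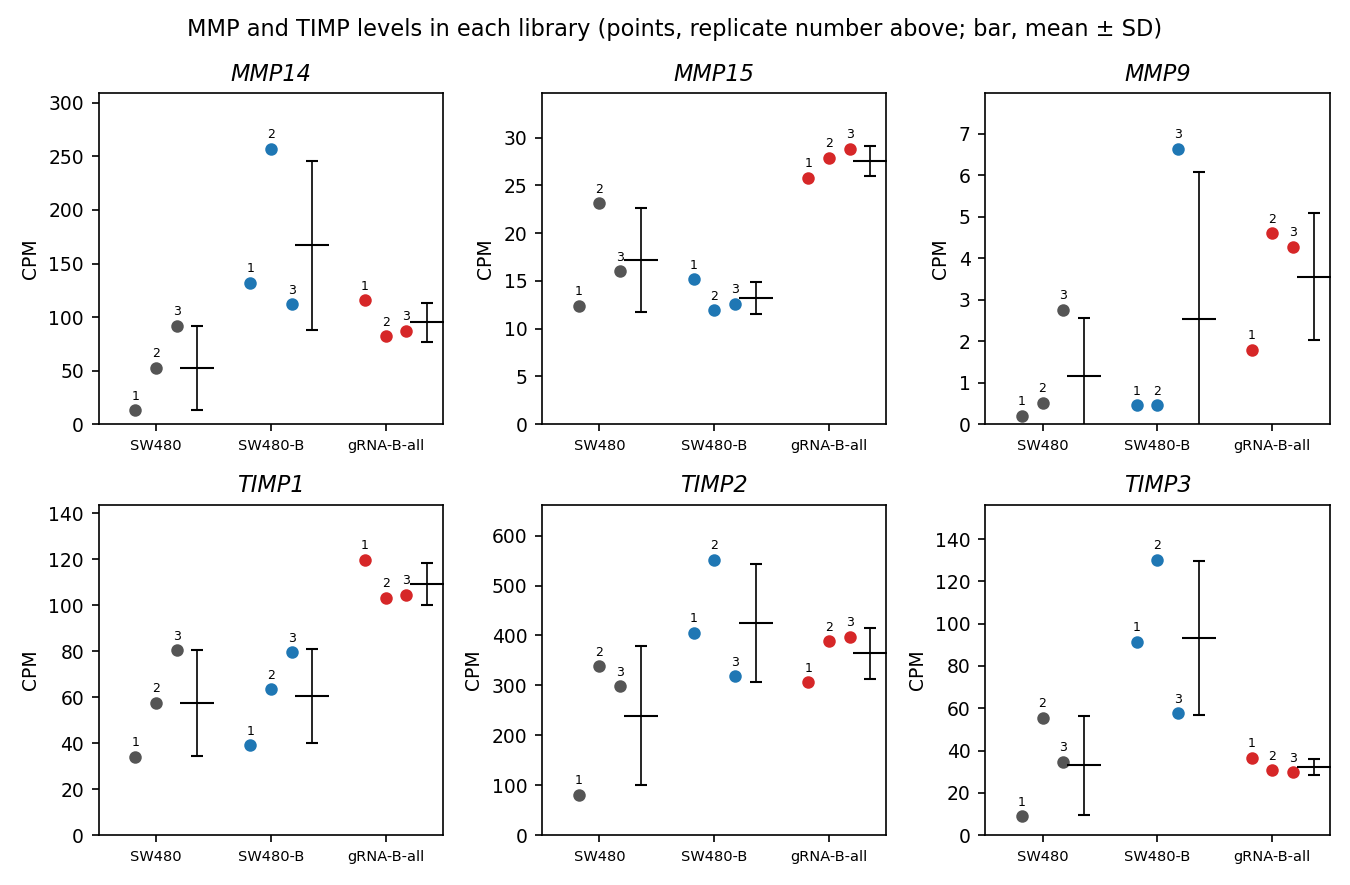
Level in CPM (linear axes from 0) of the 6 members that passed the filter on low counts in each library of the 3 lines, with the replicate number above each point and the mean ± SD (n = 3) beside it. MMP15 and TIMP1 were highest in all 3 SW480-gRNA-B-all libraries, MMP14 and TIMP3 were higher in all SW480-B than in all SW480 libraries, and for MMP9 replicate 3 of SW480-B stood apart at 6.64 CPM (SD bars end at the axis where they would pass below 0).

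The first comparison asked whether reactivation of the endogenous BASP1 gene went with a change of these genes. Of the 6 tested members, 0 passed the threshold of an adjusted p under 0.05 and a change above 2-fold in SW480-gRNA-B-all against SW480 by edgeR, beside 6.55% of 16100 genes. DESeq2 also called 0 members, where it called 2100 genes in all against 1055 by edgeR. At an unadjusted p under 0.05 edgeR found 2 (MMP15 and TIMP1, both higher), beside 28.4% of all genes. The log2FC was above 0 for 5 and below 0 for 1, with a median of 0.76 beside -0.05 over all tested genes. SW480 replicate 3 decided calls here: without it, MMP9 and TIMP1 were called, as given above. Over all genes, 2659 were called in that fit, in place of 1055.

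The second comparison asked the same of ectopic BASP1. In SW480-B against SW480, 0 of the 6 tested members passed by edgeR, beside 1.34% of 16106 genes. DESeq2 also called 0 members, where it called 953 genes in all against 216 by edgeR. At an unadjusted p under 0.05 edgeR found 2 (MMP14 and TIMP3, both higher) beside 15.8%. The log2FC was above 0 for 5 and below 0 for 1 (MMP15), with a median of 1.02 beside 0.00 over all genes. Same-numbered libraries of these lines deviated together, and a fit with a replicate block gave MMP14 a log2FC of 2.02 (adjusted p = 0.128) and TIMP3 one of 1.76 (adjusted p = 0.131). Both comparisons use the same SW480 libraries, and SW480 replicate 1 was the lowest of all 9 libraries for MMP9, MMP14, TIMP1, TIMP2 and TIMP3.

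The third comparison set the BASP1-expressing lines against each other, which leaves out the SW480 libraries. These lines also differed in vectors, selection and clone, which cannot be told apart from the way BASP1 was expressed. Here 2 of the 6 tested members were called. Compared with SW480-B, SW480-gRNA-B-all had 2.08-fold more MMP15 mRNA (log2FC 1.05, SE 0.18, adjusted p = 0.0122 by edgeR), beside 2.31% of 15846 genes called higher. TIMP3 was 2.89-fold lower (log2FC -1.53, SE 0.28, adjusted p = 0.0144), beside 4.37% called lower and 6.68% called in all. DESeq2 called 2 members as well, and the shares over all genes given here are those of edgeR. Without SW480-B replicate 3, MMP9 and TIMP1 were called in addition, with the values given above. The count over all genes also moved when 1 library was left out, as given at the end. At an unadjusted p under 0.05, 2 members were higher (MMP15 and TIMP1) and 2 lower (MMP14 and TIMP3), beside 24.4% of all genes in either direction. MMP14 had a log2FC of -0.81 (SE 0.31, adjusted p = 0.153), and TIMP2 one of -0.22 (SE 0.23, adjusted p = 0.599). The exact permutation test over libraries gave the smallest p that 3 against 3 allow, 0.1, for MMP15, TIMP1 and TIMP3.

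Both calls depended on single libraries, and each was kept in 3 of the 6 fits that left out 1 library. For MMP15 the call was lost without SW480-B replicate 2 (log2FC 0.98, adjusted p = 0.0481), without SW480-gRNA-B-all replicate 2 (adjusted p = 0.0712) and without SW480-gRNA-B-all replicate 3 (adjusted p = 0.0779). For TIMP3 it was lost without SW480-B replicate 1 (adjusted p = 0.0549), without SW480-gRNA-B-all replicate 2 (adjusted p = 0.0612) and without SW480-gRNA-B-all replicate 3 (adjusted p = 0.0634). With the 2 closely alike SW480-gRNA-B-all libraries summed into 1, neither was called (MMP15 1.05, adjusted p = 0.0739, and TIMP3 -1.46, adjusted p = 0.0639). With all 9 libraries in 1 fit MMP15 was called (adjusted p = 0.0428) and TIMP3 was not (adjusted p = 0.146).

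**Figure D2:**
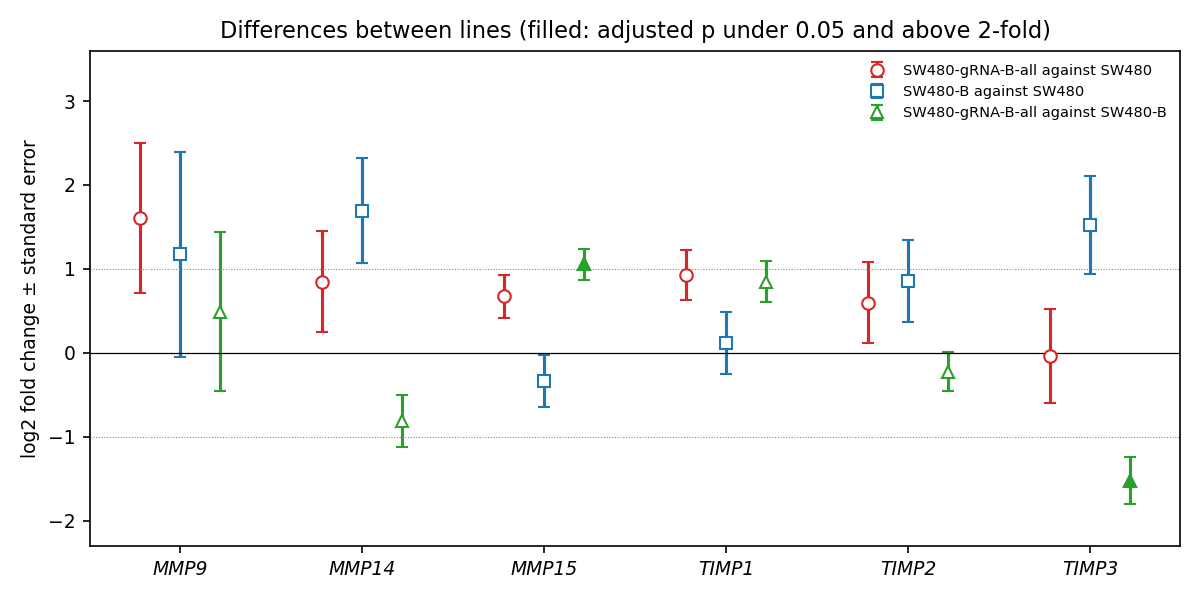
Log2FC ± SE from edgeR for the 6 tested members (x axis) in the 3 comparisons of lines, with dotted lines at a 2-fold change and filled symbols for members called at an adjusted p under 0.05 and above 2-fold. Filled symbols are MMP15 at 1.05 and TIMP3 at -1.53, both in SW480-gRNA-B-all against SW480-B, and the widest bars are those of MMP9.

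Levels of different genes were compared as CPM per kilobase of exon. In SW480 the mean levels were in the order TIMP1 (39.7 CPM per kilobase), TIMP2 (38.6), MMP14 (11.4), TIMP3 (7.19), MMP15 (4.06), MMP9 (0.498) and MMP7 (0.162), with MMP1, MMP13 and MMP10 below 0.03. Of the first 7, the ranges of all neighbours overlapped except MMP15 and MMP9. In SW480-B the order was TIMP2 (68.5), TIMP1 (42.0), MMP14 (36.1), TIMP3 (20.3), MMP15 (3.13) and MMP9 (1.08), and only TIMP3 and MMP15 did not overlap as neighbours. In SW480-gRNA-B-all it was TIMP1 (75.6), TIMP2 (58.6), MMP14 (20.6), TIMP3 (7.03), MMP15 (6.51) and MMP9 (1.52), and of these neighbours only TIMP3 and MMP15 overlapped. MMP14 was thus the highest MMP in the mean of each line, and TIMP1 or TIMP2 the highest inhibitor.

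The summed level of the 3 TIMP genes was above that of the 7 MMP genes in every library. The ratio of the sums was 6.59, 6.12 and 4.43 in SW480, 3.47, 2.74 and 3.94 in SW480-B and 4.38, 5.34 and 5.17 in SW480-gRNA-B-all. All SW480-B libraries had a lower ratio than all libraries of the other lines. MMP14 made up 48.4% to 79.2% of the MMP sum in SW480, 80.1% to 94.7% in SW480-B and 67.3% to 78.3% in SW480-gRNA-B-all. TIMP3 made up 5.05%, 11.3% and 6.78% of the TIMP sum in SW480, 17.7%, 17.6% and 10.6% in SW480-B and 5.67%, 4.72% and 4.54% in SW480-gRNA-B-all. The share of TIMP3 was above that of all other libraries in SW480-B replicates 1 and 2, and SW480-B replicate 3 was below SW480 replicate 2. These sums over chosen genes are descriptions of mRNA and were not tested, and they do not measure protein or inhibitor activity.

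Over the 9 libraries, MMP14, TIMP2 and TIMP3 followed each other most closely. Pearson's r of log2(CPM + 1) was 0.913 for MMP14 and TIMP2, 0.870 for MMP14 and TIMP3, and 0.844 for TIMP2 and TIMP3. It was 0.758 for MMP9 and TIMP1, 0.661 for MMP15 and TIMP1, 0.0137 for MMP14 and MMP15 and -0.187 for MMP15 and TIMP3. These values are descriptions over libraries that share 3 lines, and SW480 replicate 1 was lowest for MMP14, TIMP2 and TIMP3 alike. Among 13752 genes, those most like MMP14 were PITPNA (r = 0.992), CAPN2 (0.988) and COASY (0.986), and those most like TIMP2 were GRINA (0.988), AP2B1 (0.982) and MT-CO2 (0.978). For MMP15 they were HSPG2 (0.970), RYBP (0.965) and FBXL18 (0.962), and for TIMP3 they were ACE (0.988), RMC1 (0.982) and CAST (0.976).

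Of 17 other MMP and TIMP genes, 7 were tested in each comparison with SW480 and 6 between the BASP1-expressing lines. MMP19, a secreted MMP, was the 1 gene called in SW480-gRNA-B-all against SW480, beside 6.55% of all genes, and it was higher. In SW480-B against SW480, 0 were called, beside 1.34%. Between the BASP1-expressing lines 2 were called higher, beside 2.31%, and 0 lower, beside 4.37%. MMP19 was at 0.620, 1.07 and 1.93 CPM in SW480, 3.71, 2.75 and 2.08 CPM in SW480-B and 10.7, 7.41 and 8.21 CPM in SW480-gRNA-B-all. The lines did not overlap. SW480-gRNA-B-all had a log2FC of 2.85 from SW480 (SE 0.46, adjusted p = 0.0198 by edgeR) and 1.62 from SW480-B (SE 0.31, adjusted p = 0.0162). The first was kept only without SW480 replicate 1 or 3, with an adjusted p up to 0.0999 in the other fits, and the second was lost without SW480-B replicate 2 (0.0678) and without SW480-gRNA-B-all replicate 2 (0.0506) or 3 (0.0632). MMP17, a GPI-anchored MMP, was higher in SW480-gRNA-B-all when compared with SW480-B (log2FC 2.21, SE 0.54, adjusted p = 0.0416), but the call was lost without any 1 of the 6 libraries (adjusted p 0.0619 to 0.119). MMP17 was at 8.64, 6.38 and 1.60 CPM in SW480, at 0.309 to 0.891 CPM in SW480-B and at 1.60 to 4.57 CPM in SW480-gRNA-B-all. MMP2, the gelatinase whose proenzyme MMP14 activates, was at 0.241 to 1.86 CPM in SW480, 1.93 to 5.88 CPM in SW480-B and 0.701 to 1.52 CPM in SW480-gRNA-B-all, and it was called in none of the 3 comparisons (adjusted p = 0.103 to 0.927 by edgeR).

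Plasminogen activators, which generate plasmin, an activator of several proMMPs, were at their highest level in SW480-gRNA-B-all. Of 14 genes of plasminogen activation, 11 were tested in each comparison. In this line 2 were called higher when set against SW480-B, beside 2.31% of all genes, and 0 were called lower, beside 4.37%. PLAU, urokinase, was at 1.76, 5.69 and 7.13 CPM in SW480, 5.26, 9.27 and 4.81 CPM in SW480-B and 94.3, 30.6 and 30.4 CPM in SW480-gRNA-B-all. In that line its log2FC was 3.41 from SW480 (adjusted p = 0.0327 by edgeR) and 3.00 from SW480-B (adjusted p = 0.0107). PLAT, tissue plasminogen activator, was at 0.275, 3.55 and 5.20 CPM in SW480, 1.74, 3.46 and 3.39 CPM in SW480-B and 22.02, 17.6 and 19.00 CPM in SW480-gRNA-B-all, with a log2FC of 2.77 from SW480-B (adjusted p = 0.00231) that was kept without any 1 library. Both activators were higher in every SW480-gRNA-B-all library than in any other, but PLAT was not called against SW480. The call of PLAU against SW480 was lost without SW480 replicate 2 (adjusted p = 0.125) and without any 1 SW480-gRNA-B-all library (0.0819 to 0.0836), and that against SW480-B was lost without SW480-B replicate 1 (0.0624). In SW480-B against SW480, 0 of the 11 passed, beside 1.34% of all genes. At an unadjusted p under 0.05 edgeR found 3, beside 15.8% of all genes.

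Of 10 genes for MMP processing and surface partners, 9 were tested in each comparison with SW480 and 8 between the BASP1-expressing lines, and 1 was called in each. Over all genes, 6.55% were called in SW480-gRNA-B-all against SW480, 1.34% in SW480-B against SW480 and 6.68% between the BASP1-expressing lines. A2M, a plasma protein that traps proteases, was lower in both comparisons with SW480. It was at 4.48, 4.48 and 1.09 CPM in SW480, at most 0.107 CPM in SW480-B and at most 0.134 CPM in SW480-gRNA-B-all, with log2FCs of -5.19 (adjusted p = 0.0216 by edgeR) and -5.56 (adjusted p = 0.0165). Each call was lost without SW480 replicate 2 (adjusted p = 0.0661 in SW480-B and 0.0803 in SW480-gRNA-B-all) and without any 1 library of the BASP1-expressing line (0.0639 to 0.201). CD44, a hyaluronan receptor that docks MMPs at the cell surface, was lower in SW480-gRNA-B-all, at 91.8 to 120 CPM against 188 to 297 CPM in SW480-B (log2FC -1.31, adjusted p = 0.0101). SW480 overlapped both, at 48.7 to 272.4 CPM. That call was lost without SW480-gRNA-B-all replicate 2 (adjusted p = 0.0559) or 3 (0.0602). Of 14 ADAM and ADAMTS genes, 8 were tested between the BASP1-expressing lines, and 1 was called lower, beside 4.37% of all genes. This was ADAM19, a membrane-anchored sheddase, at 68.9 to 99.3 CPM in SW480-gRNA-B-all against 194 to 277 CPM in SW480-B. Its log2FC was -1.33 (adjusted p = 0.00966 by edgeR), and it was called in each of the 6 fits that left out 1 library. Against SW480, 0 genes of this list were called in either line. In SW480, ADAM19 was at 26.4 to 197.2 CPM and overlapped both lines.

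**Figure D3:**
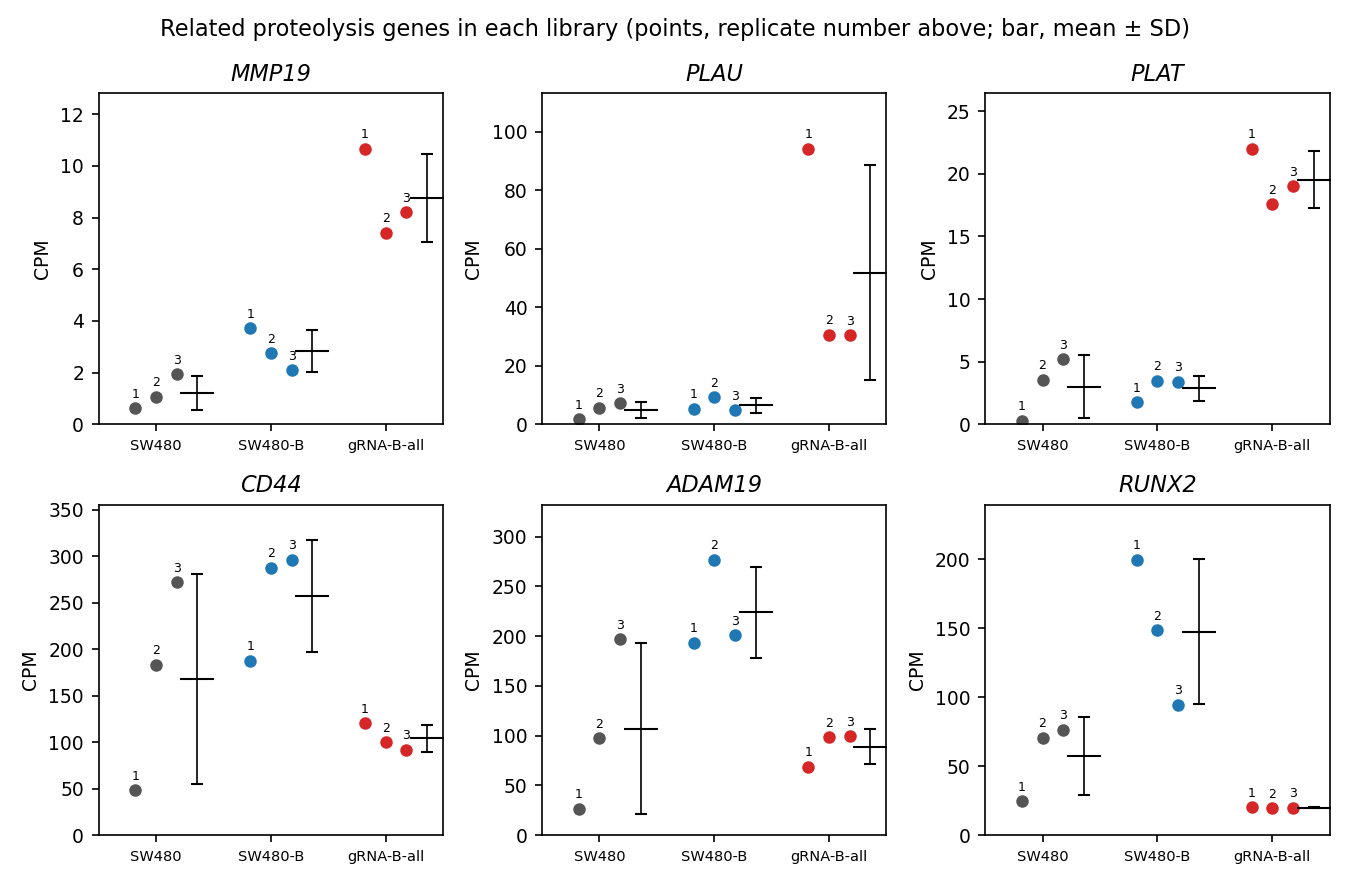
Level in CPM (linear axes from 0) of MMP19, PLAU, PLAT, CD44, ADAM19 and RUNX2 in each library, with the replicate number above each point and the mean ± SD (n = 3) beside it. MMP19, PLAU and PLAT are highest in all 3 SW480-gRNA-B-all libraries, and CD44, ADAM19 and RUNX2 are lower in all of them than in all SW480-B libraries.

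The last list held 13 AP-1, ETS (ETV1, ETV4, ETV5, ETS1 and ETS2) and RUNX2 transcription factors, known regulators of MMP promoters. In SW480-gRNA-B-all against SW480-B, 4 of 13 were called lower, beside 4.37% of all genes, and 0 higher, beside 2.31%. All 13 were tested, and 12 of 13 had a log2FC below 0 with a median of -0.62 beside 0.00 over all genes. RUNX2, which drives MMP13 in bone and cartilage, was at 24.6, 70.8 and 76.4 CPM in SW480, 199.9, 149 and 94.8 CPM in SW480-B and 20.4, 19.5 and 19.8 CPM in SW480-gRNA-B-all (log2FC -2.90 from SW480-B, adjusted p = 0.00138 by edgeR). FOS, a subunit of AP-1, was at 12.4 to 58.4 CPM in SW480, 36.2 to 53.0 CPM in SW480-B and 13.7 to 14.8 CPM in SW480-gRNA-B-all (log2FC -1.68, adjusted p = 0.00277). Both calls were kept without any 1 library. ETS2 (log2FC -1.36, adjusted p = 0.0217) and ETV1 (-3.63, adjusted p = 0.0451) were also lower. ETS2 was at 62.8 to 174.0 CPM in SW480, 64.5 to 131.3 CPM in SW480-B and 31.3 to 42.2 CPM in SW480-gRNA-B-all. ETV1 was at 20.5 to 89.0 CPM in SW480, 7.46 to 14.6 CPM in SW480-B and 0.1002 to 2.13 CPM in SW480-gRNA-B-all. The call of ETS2 was kept without SW480-B replicate 1 and without SW480-gRNA-B-all replicate 1 and lost in the other 4 fits (adjusted p up to 0.101), and that of ETV1 was lost in 5 of 6 (adjusted p up to 0.159). Against SW480, ETV1 was the 1 of 13 called in SW480-gRNA-B-all, beside 6.55% of all genes, and it was lower (-6.10, adjusted p = 0.0283 by edgeR). That call was lost without SW480 replicate 2 (0.111) and without SW480-gRNA-B-all replicate 2 (0.0939) or 3 (0.105). In SW480-B against SW480, 0 of the 13 passed, beside 1.34% of all genes. There 3 had an unadjusted p under 0.05 by edgeR, beside 15.8%.

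With SW480-gRNA-B-all replicates 2 and 3 summed into 1 library, the calls of PLAU (adjusted p = 0.0145 by edgeR), PLAT (0.0103), ADAM19 (0.0384), FOS (0.0181) and RUNX2 (0.00924) against SW480-B were kept. Those of MMP17 (0.0768), MMP19 (0.0559), CD44 (0.0572), ETS2 (0.0984) and ETV1 (0.123) against SW480-B were not. Against SW480 the calls of MMP19 (adjusted p = 0.0790 by edgeR), A2M (0.0693), PLAU (0.0790) and ETV1 (0.101) were also lost. So were those of the markers COL1A1 (0.162), LUM (0.0834), VIL1 (0.0794) and CDX2 (0.0502), whereas the call of CDX2 against SW480-B was kept (0.00534). BASP1 itself lost its call in this fit (log2FC 5.11, 0.0834), and over all genes 97 were called in place of 1055. Without SW480 replicate 2, BASP1 was called in neither line (0.116 in SW480-gRNA-B-all, 0.1075 in SW480-B). Its call was also lost without any 1 library of the BASP1-expressing line (0.0698 to 0.201).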

How the data were processed

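Poly(A) RNA of 3 lines (9 libraries) was sequenced by the authors as stranded paired reads. They mapped the reads to GRCh37 and deposited counts, whole numbers of fragments per Ensembl gene without normalization; the counting program and its strand setting are not given in the sources used here. Lines naming no gene (no feature 5.22% to 9.93%, ambiguous 3.09% to 3.44%) stayed out. Deposited alignment metrics were not used. Symbols were matched for 55665 identifiers, holding 99.4% of counts.

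The 3 pairwise comparisons of lines were each fitted to their 6 libraries in edgeR 4.0.16 (R 4.3.3, filterByExpr with a least count of 10 and least total of 15, TMM, robust glmQLFit, glmQLFTest). A gene was called at a Benjamini-Hochberg adjusted p under 0.05 over all tested genes and a change above 2-fold. Standard errors were derived from the F statistic (log2 fold change over its square root). CPM used TMM factors over 9 libraries, and exon lengths came from GENCODE on GRCh37.

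Alternatives were RLE size factors, 2 other filters, all 9 libraries in 1 fit, the replicate block, DESeq2 1.42.0, other thresholds, each library left out in turn, and SW480-gRNA-B-all replicates 2 and 3 summed. Correlations of deviations of same-numbered libraries were 0.315, 0.464 and 0.403 for SW480-B and SW480, above the limit of 0.1 for pairing. For SW480-gRNA-B-all they were above it in replicates 1 and 3, at 0.336 and 0.327 with SW480 and 0.298 and 0.3215 with SW480-B. In replicate 2 they were -0.0019 and -0.110. The test was tried on simulated counts for each comparison.

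The 10 members are described whatever their values. From each other list, called genes were named, up to 5 per direction, except for 1 result that is not reported here, and MMP2 was added after its values were seen. The 3 most alike genes were named for the highest MMP and TIMP and for called members. Members and lists were chosen with earlier results of these data known.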

Additional observations from a re-analysis of the deposited data

How the results depend on the processing

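All 30 levels, recomputed only from library size without TMM factors, kept within the spread between replicates. These factors were 0.944 to 1.06, so this setting could move the levels little. Of 227 recomputed log2 fold changes of members, 203 kept their direction and their side of the threshold. Of the others, 4 passed it newly, 9 no longer passed it and 11 changed sign. The fits with a changed sign were not past the threshold. TIMP3 in SW480-gRNA-B-all against SW480 was at -0.04 and turned to 0.26 with the replicate block and to 0.022 with replicates 2 and 3 summed. Leaving out 1 library gave this value a range of -0.48 to 0.59. The same gave -1.30 to 2.83 for MMP9 and -0.15 to 0.44 for TIMP1 in SW480-B against SW480, and -0.0076 to 2.93 for MMP9 between the BASP1-expressing lines. The members called were 0 to 2 in SW480-gRNA-B-all against SW480, 0 in SW480-B against SW480 and 0 to 4 between the BASP1-expressing lines when 1 library was left out. Between the BASP1-expressing lines the count was 1 with all 9 libraries in 1 fit and 0 with replicates 2 and 3 summed. The cause was not tested.

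Counts over all genes moved more. The 1055 genes of SW480-gRNA-B-all against SW480 became 2100 by DESeq2, 97 with replicates 2 and 3 summed, 1887 at an adjusted p under 0.10 and 8 to 2659 when 1 library was left out. For SW480-B against SW480, 216 became 735 with no filter, 143 with at least 1 CPM in 3 libraries, 452 with all 9 libraries in 1 fit, 953 by DESeq2, 413 at an adjusted p under 0.10 and 0 to 921 when 1 library was left out. For SW480-gRNA-B-all against SW480-B, 1059 became 654 with all 9 libraries in 1 fit, 446 with replicates summed and 420 to 1548 when 1 library was left out. With the replicate block the counts were 1199, 319 and 1389 in this order. The block changed no call of a member. MMP9 in SW480-B against SW480 had no value under the filter of 1 CPM. MMP1, MMP7, MMP10 and MMP13 did not pass the filter on low counts, and with no filter their adjusted p-values were 0.431 to 0.992.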
